A study of Homo sapiens with 2 samples.

Results

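miR-103 and miR-107 are described here by 4 of the 2588 mature miRNA names listed for each library: miR-103a-3p, miR-107, miR-103a-2-5p and miR-103b. The entries were taken by name. Of the 4, 2 held at least 30 counts over both libraries and were tested, and the other two were at or near 0. The study asked which miRNAs of the triple-negative breast cancer line MDA231 (parental cells, also written MDA-MB-231) associate with the long non-coding RNA MACC1-AS1. The bait library came from amylose resin loaded with in vitro transcribed MACC1-AS1-MS2, held there by a fusion of maltose-binding protein and MS2 coat protein. The no-bait library came from the same cells' lysate on resin given no RNA substrate. Each group had 1 library, with 1047269 miRNA counts with bait and 269716 without. There is no replicate check, and every interval covers counting error only. Because the resin of the no-bait library carried no RNA at all, MACC1-AS1, the MS2 tag and any other RNA on a resin cannot be told apart as the source of a higher ratio. In these bulk libraries, a miRNA carried by fewer cells and less of it per cell cannot be told apart either.

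Pantothenate kinases, encoded by the PANK genes, catalyse the first step of coenzyme A synthesis, and introns of this gene family carry the miR-103 and miR-107 hairpins. A miRNA guides an Argonaute protein to RNAs that pair with its seed, the bases near its 5′ end. Both miRNAs are known in human breast cancer for repressing DICER1, the enzyme that cuts miRNA precursors, and in mice for lowering insulin sensitivity through caveolin-1. Through an overlapping motif they are grouped with miR-15, miR-16 and their relatives as the miR-15 and miR-107 group, whose targets include cell-cycle genes.

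The mature sequences below are shown because the comparison of the members turns on how alike they are. They come from RefSeq (GRCh38.p14), where all 4 names matched, and capitals mark the seed, bases 2 to 8 counted from the 5′ end.
hsa-miR-103a-3p: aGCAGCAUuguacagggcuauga
hsa-miR-107: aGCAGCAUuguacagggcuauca
hsa-miR-103a-2-5p: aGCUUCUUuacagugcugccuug
hsa-miR-103b: uCAUAGCCcuguacaaugcugcu
miR-103a-3p and miR-107 have the seed GCAGCAU in common, and none of the other names with a RefSeq sequence has it. Each is 23 bases long, and they differ by 1 substitution, G22C, with miR-103a-3p's base given first and positions counted from the 5′ end. Their first 21 bases are identical, so a read that stops there fits both names equally. The sources used here do not say how such reads were divided, which makes the split between miR-103a-3p and miR-107 uncertain. miR-103b is the exact reverse complement of miR-103a-3p, read from the opposite strand of the same loci.

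The hairpins show where the arms lie, with the mature 3p sequence in capitals.
MIR103A1: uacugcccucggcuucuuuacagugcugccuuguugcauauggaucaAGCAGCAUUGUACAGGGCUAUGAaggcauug
MIR103A2: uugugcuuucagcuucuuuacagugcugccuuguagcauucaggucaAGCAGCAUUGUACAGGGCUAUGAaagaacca
MIR107: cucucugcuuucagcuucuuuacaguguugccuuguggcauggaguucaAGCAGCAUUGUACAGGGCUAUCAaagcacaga
MIR103A1 (chr5:168560896-168560973, minus strand) lies in intron 5 of PANK3 on the host's strand, by GENCODE version 29 and transcript PANK3-201. MIR103A2 (chr20:3917494-3917571, plus strand) lies in intron 5 of PANK2 in transcript PANK2-201, again on the host's strand. MIR107 (chr10:89592747-89592827, minus strand) lies in intron 5 of PANK1 in transcript PANK1-201, also on the host's strand. All 3 hosts thus carry their miRNA in the same numbered intron of these transcripts. MIR103A2 and MIR107 had the most similar hairpins, with 69 identical bases over 81 aligned columns (85.2%), while MIR103A1 matched MIR103A2 at 80.8% and MIR107 at 79.0%. The 3p product of MIR103A1 and MIR103A2 is 1 sequence, so the counts of miR-103a-3p do not say which host gene it came from. The antisense hairpins of miR-103b lie inside these loci, at chr5:168560904-168560965 on the plus strand and chr20:3917502-3917563 on the minus strand.

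miR-103a-3p was the abundant member. It had 1335 counts with bait and 153 without, which is 1275 RPM (counts per 1000000 of the library's total) with bait (95% Poisson interval 1207 to 1345) and 567 RPM without (481 to 665). These intervals do not overlap. It ranked 42nd of 651 names with any count in the bait library and 60th of 476 in the no-bait library. Its bait over no-bait ratio was 2.25, with an exact conditional binomial interval of 1.90 to 2.67. The call of higher needed a ratio of 2 or more and that of lower a ratio of 0.5 or less, each with an interval that excludes 1. miR-103a-3p was therefore called higher, although its interval reached below 2.

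miR-107 was the rare paralog. It had 55 counts with bait and 12 without, or 52.5 RPM with bait (39.6 to 68.4) and 44.5 RPM without (23.0 to 77.7). The level intervals overlap over most of their length. Its ratio of 1.18 had an interval of 0.625 to 2.42 and passed neither rule. With 12 counts in the no-bait library, a 2-fold rise lay inside the interval, so neither such a rise nor equal levels could be told from these counts.

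miR-103a-2-5p, from the other arm of MIR103A2, had 1 count with bait and 0 without. The bait value is 0.955 RPM (0.0242 to 5.32). The count of 0 without bait was set against a floor of 3 counts, or 11.1 RPM, and its Poisson upper limit is 13.7 RPM. Both libraries were at or under that floor of 3 counts, so no fold is given. miR-103b had 0 counts in each library, where the floor is 2.86 RPM with bait and 11.1 RPM without. Its Poisson upper limits are 3.52 RPM with bait and 13.7 RPM without. In the authors' deposited table miR-103a-2-5p has a log2 fold change of 6.57 with a p of 1, a value made from that 1 count after 0 RPM was replaced by 0.01.

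**Figure D1:**
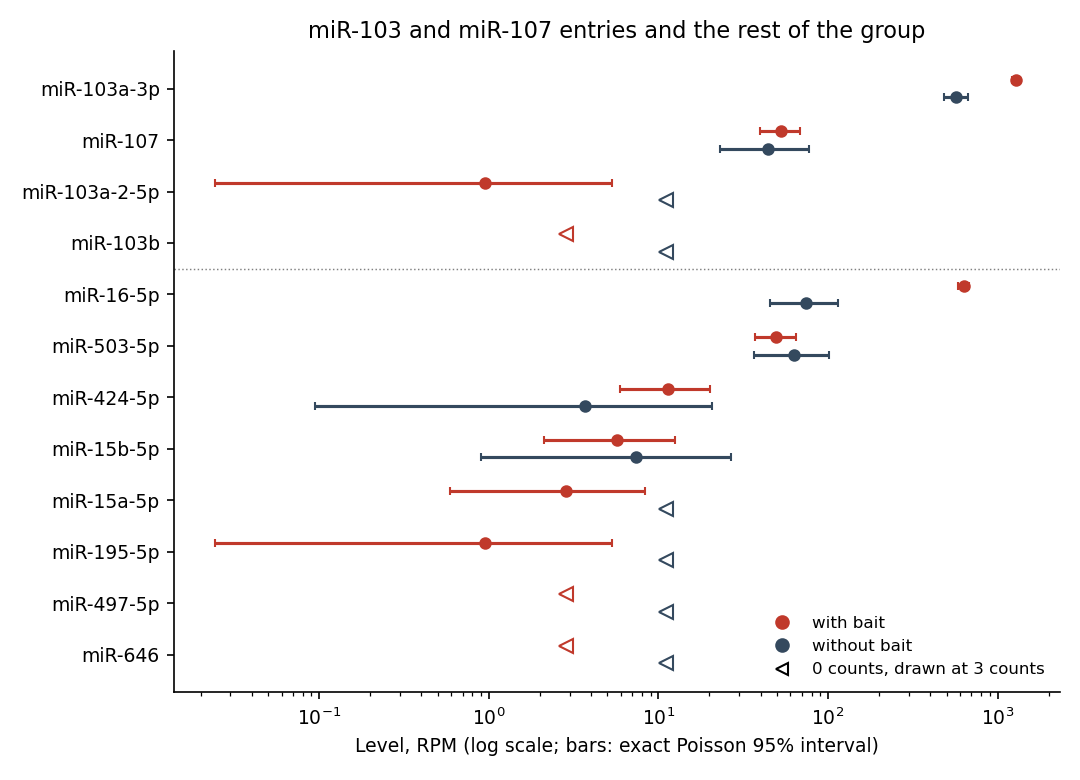
Levels in RPM on a log axis for the 4 miR-103 and miR-107 entries (above the dotted line) and the other members of the miR-15 and miR-107 group, with bait in red and without bait in dark blue; bars are exact Poisson 95% intervals and open triangles mark 0 counts at the level of 3 counts. miR-103a-3p stands at 1275 RPM with bait and 567 RPM without, and the values of miR-107, 52.5 and 44.5 RPM, lie within each other's intervals.

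Among all 231 tested miRNAs, 39.4% were called higher (91) and 26.8% lower (62), so that 59.5% of the calls were higher. DESeq2 size factors put that share at 72.2%, from 114 higher and 44 lower. Of the 2 tested members 1 was higher and 0 were lower, a number too small to set against that background. The ratio of miR-103a-3p ranked 95th from the highest, above 58.9% of tested miRNAs, and its log2 ratio of 1.17 was 0.62 above the median of 0.55. miR-107 ranked 133rd, above 42.4% of them, with a log2 ratio of 0.24 that was 0.31 below that median (a difference of -0.31). Both members thus lay in the middle part of the distribution, far from its ends at ratios of 150 and 0.00644. In the authors' deposited table miR-103a-3p has a log2 fold change of 1.17 and a p of 0.0510, and miR-107 has 0.24 and 0.669. The test behind the p-values of the authors' deposited table is not named, and of the 91 miRNAs called higher here 78 had a p under 0.05 in it.

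**Figure D2:**
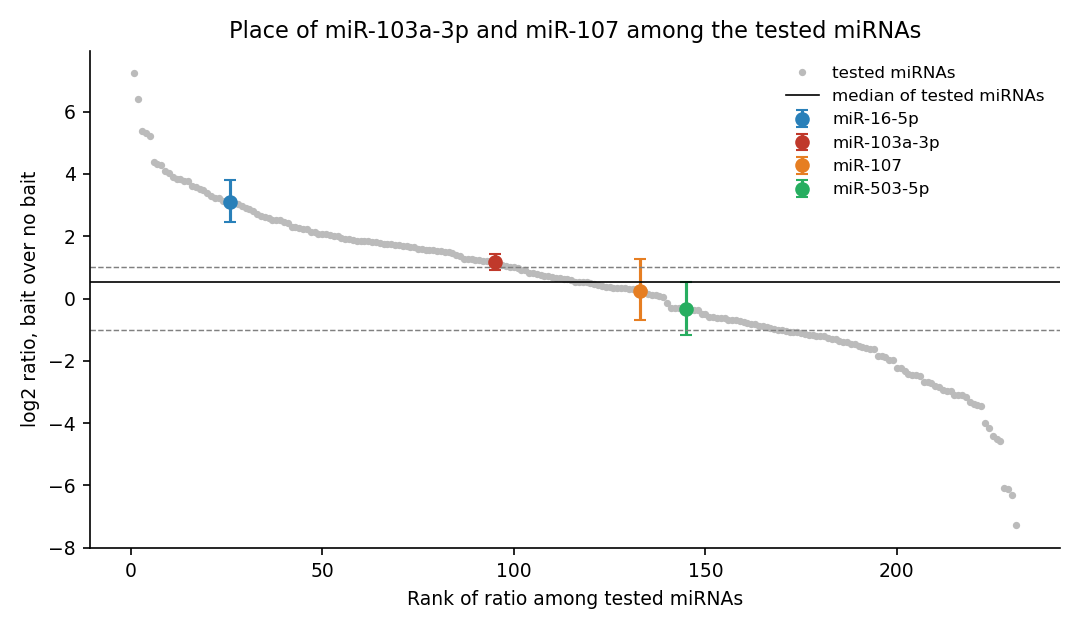
Log2 ratio of bait over no bait for the 231 tested miRNAs against their rank; coloured points with 95% counting intervals are miR-16-5p, miR-103a-3p, miR-107 and miR-503-5p, dashed lines mark 2-fold either way and the solid line the median of 0.55. miR-103a-3p lies at rank 95, just above the upper dashed line, and miR-107 at rank 133, below the median.

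The call of miR-103a-3p held under each scaling tried, but its size moved. Its ratio was 2.50 with TMM factors, 3.01 with DESeq2 size factors and 2.06 when the 5 most abundant miRNAs were dropped from the totals, and it was called higher each time. miR-107 passed neither rule under the same scalings, at 1.31, 1.58 and 1.08. Adding the counts of miR-103a-3p, miR-103b and miR-107 into 1 entry gave 1390 counts with bait and 165 without. This sum does not depend on the split of reads among the names, provided that no read was credited to more than 1 name. The sources used here do not say whether that held. The ratio of this sum was 2.17 (1.85 to 2.57).

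**Figure D3:**
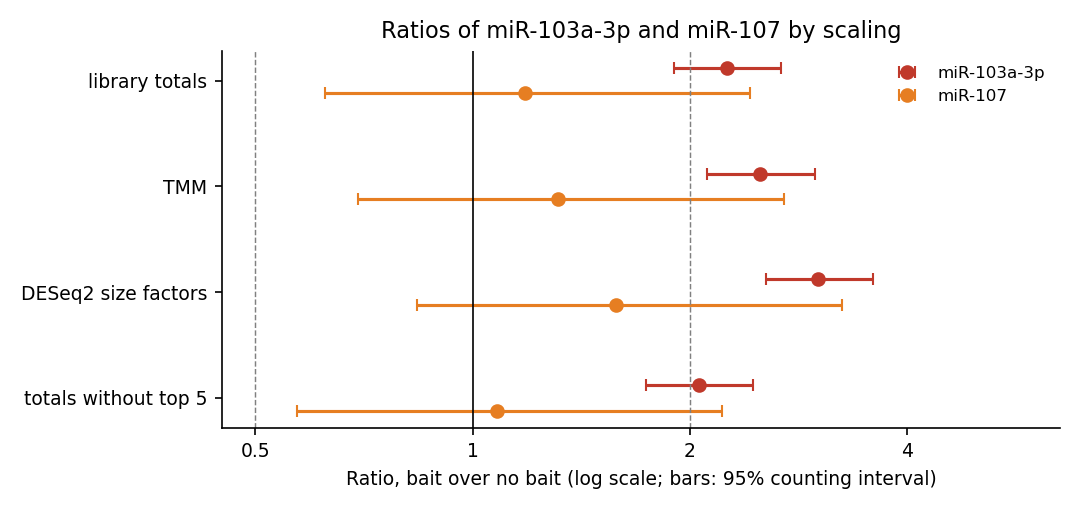
Ratio of bait over no bait on a log axis for miR-103a-3p (red) and miR-107 (orange) under 4 scalings, with 95% counting intervals; dashed lines mark ratios of 0.5 and 2. All red points lie above 2 and all orange intervals contain 1.

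The balance between the paralogs does not depend on scaling. It does depend on the split of reads, and its shares and intervals treat each read as credited to 1 name. Within the sum of both, miR-107 made up 3.96% of counts with bait (55 of 1390, exact Clopper-Pearson interval 2.99% to 5.12%) and 7.27% without (12 of 165, 3.81% to 12.4%). miR-103a-3p thus exceeded miR-107 by 24.3 to 1 with bait and 12.8 to 1 without. The ratio of miR-103a-3p was 1.90 times that of miR-107, with an exact conditional interval of 0.907 to 3.70. This interval contains 1, so the libraries were not shown to differ in the balance of the paralogs, and a gap of up to 3.70-fold lay within counting error.

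Other near-identical miRNAs set a scale for that gap. Among the 203 of 231 tested miRNAs with a RefSeq mature sequence, 11 pairs of equal length differed at 1 base, miR-103a-3p and miR-107 included. The ratios of the 2 members of such a pair were apart by 0.01 to 4.46 on the log2 scale, with a median of 0.84. The PANK intron pair was apart by 0.93, and 4 of the other pairs lay farther apart. The interval excluded 1 in 4 of the 11 pairs. The widest gap was that of let-7b-5p (3.99) and let-7c-5p (0.181), while miR-100-5p (0.655) and miR-99a-5p (0.621), a far deeper pair, differed by less than counting error. The substitution of miR-107 leaves 1 base after it, whereas in the other pairs 2 to 13 bases follow. Some pairs share a member, such as let-7a-5p, so the 11 gaps are not independent.

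**Figure D4:**
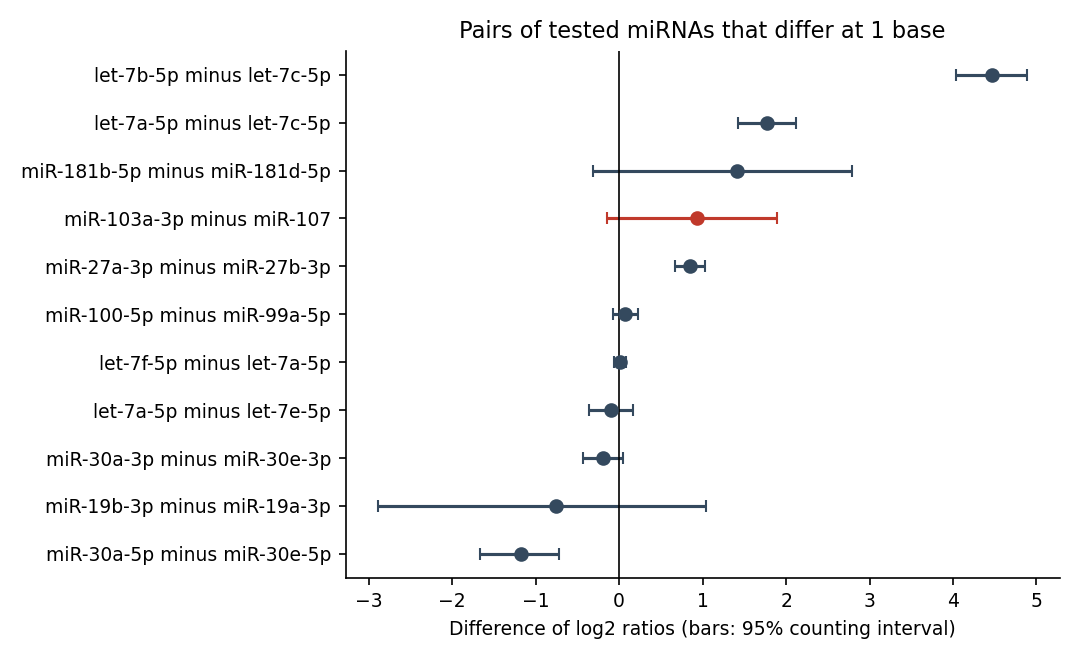
Difference of log2 ratios (first named minus second named) for the 11 pairs of tested miRNAs that differ at 1 base, with 95% counting intervals; miR-103a-3p minus miR-107 is in red. Its point lies at 0.93 with an interval across 0, between miR-181b-5p minus miR-181d-5p (1.41) and miR-27a-3p minus miR-27b-3p (0.84).

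Other names antisense to a counted miRNA were also at 0. The files hold 9 pairs of names whose RefSeq sequences are exact reverse complements. In 6 of them 1 name had counts, and in 0 of the 9 did both. miR-7-5p had 2724 counts with bait and 781 without, while its reverse complement miR-3529-3p had 0 and 0. miR-423-5p (301 with bait and 1391 without) likewise stood beside miR-3184-3p at 0 and 0, and miR-374b-5p (115 and 3) beside miR-374c-3p at 0 and 0. Against miR-103a-3p, the 0 counts of miR-103b allow a share of up to 0.225% with bait and 1.96% without by the floor of 3 counts, or 0.276% and 2.38% by the exact Clopper-Pearson upper limit.

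The 5p arm was as rare. miR-103a-2-5p made up 1 of 1336 counts of both arms with bait, a share of 0.0749% (0.00190% to 0.416%), and 0 of 153 without. The 3p counts also hold the product of MIR103A1, so this share is set over both hairpins' 3p product. The 5p arm of MIR103A1 is not among the names listed for these libraries. For a comparison, arms were paired by names that differ only in the 5p or 3p ending, with miR-103a-2 added. miRNAs whose other arm has a number in its name, such as miR-125b-5p and miR-26a-5p, were therefore left out. Among the 37 hairpins so paired with at least 1000 bait counts over both arms, 12 had a smaller minor-arm share. The median share was 0.367%. At the far end of that range miR-106b had 40.3% in its minor arm.

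The miR-15 and miR-107 group shares the run AGCAGC near its 5′ end, at bases 1 to 6 in miR-103a-3p and miR-107 and at bases 2 to 7 in the 8 others. The 2 tested relatives are printed to show this shift of 1 base, again with bases 2 to 8 in capitals.
hsa-miR-16-5p: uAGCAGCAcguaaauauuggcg
hsa-miR-503-5p: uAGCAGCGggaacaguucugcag
Of the 10 listed members 4 were tested, of which 2 were higher, miR-103a-3p included, and 0 lower, beside 39.4% higher and 26.8% lower over all tested miRNAs. The median log2 ratio was 0.70, against 0.55 over all tested. With 4 tested members, these shares cannot be told from the background. miR-16-5p, which represses BCL2 and cyclin genes, had 659 counts with bait and 20 without, or 629 and 74.2 RPM. Its ratio of 8.49 (5.45 to 14.0) was 3.78 times that of miR-103a-3p, with an interval of 2.33 to 6.41. It was also 7.19 times that of miR-107 (3.02 to 16.3).

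miR-503-5p, made with miR-424 from an X-linked cluster, had 52 counts with bait and 17 without, or 49.7 and 63.0 RPM. Its ratio of 0.788 (0.448 to 1.45) passed neither rule. The ratio of miR-103a-3p was 2.85 times that of miR-503-5p (1.51 to 5.16), and that of miR-107 was 1.498 times it (0.605 to 3.79). So the 4 tested members fell in the order miR-16-5p, miR-103a-3p, miR-107 and miR-503-5p, and the neighbours miR-103a-3p and miR-107, like miR-107 and miR-503-5p, did not differ beyond counting error. The remaining members were scarce. miR-424-5p had 12 counts with bait and 1 without, miR-15b-5p 6 and 2, miR-15a-5p 3 and 0, miR-195-5p 1 and 0, and both miR-497-5p and miR-646 0 and 0.

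No seed match for these miRNAs was found in the annotated MACC1-AS1 transcript of 639 bases (GENCODE version 29). The letters searched on the transcript's sense strand were ATGCTGC for miR-103a-3p and miR-107, AAGAAGC for miR-103a-2-5p and GGCTATG for miR-103b, the complements of bases 2 to 8. The shorter TGCTGC, which lies within the first of these and pairs with bases 2 to 7, was found 0 times as well. Among the first 639 bases of 26722 long non-coding transcripts, which include overlapping isoforms, 6.63% held ATGCTGC, 10.6% AAGAAGC, 3.16% GGCTATG and 30.3% TGCTGC. The complements of bases 2 to 8 of miR-16-5p and miR-503-5p, TGCTGCT and CGCTGCT, were also found 0 times (held by 12.3% and 4.35% of the 26722). A site for bases 2 to 8 was present for 4 of the 203 tested miRNAs with a sequence (1.97%). The longest stretch of miR-103a-3p or miR-107 that could pair without a gap or mismatch was 6 bases, bases 7 to 12 with TACAAT at transcript positions 205 to 210. A longest stretch of 6 or fewer was found for 61.6% of the 203. The form of MACC1-AS1 put on the resin and its MS2 tag were not analysed here, and these matches only describe letters.

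Other miRNAs with known ties to the members went in both directions. Of the 9 let-7 and miR-98 entries that, like miR-103 and miR-107, are known to repress DICER1, 2 were higher, 2 lower and 5 neither, beside 39.4% higher and 26.8% lower over all tested miRNAs. The median log2 ratio was -0.68, again against 0.55 overall. let-7i-5p (7065 counts with bait, 4961 without) had a ratio of 0.367 and was lower, and let-7g-5p (12641 and 1522) had a ratio of 2.14 and was higher, a call that ended when the 5 most abundant miRNAs were dropped from the totals (1.96). The abundant let-7f-5p (12011 and 4954) and let-7a-5p (9866 and 4110) had ratios of 0.624 and 0.618.

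Of 14 miRNAs known in lipid and glucose metabolism 7 were tested, of which 2 were higher and 0 lower, beside 39.4% and 26.8% over all tested miRNAs. The median log2 ratio was 0.75, against 0.55 overall. miR-29a-3p (2306 counts with bait and 99 without), a repressor of collagens and insulin signalling genes, was higher at 5.999 (4.90 to 7.41). miR-27b-3p (4908 and 754) had a ratio of 1.68, miR-378a-3p (769 and 254), from an intron of PPARGC1B, 0.780, and miR-143-3p (251 and 82) 0.788. The count of higher members was 4 with DESeq2 size factors. Of 7 metastasis-promoting breast miRNAs 5 were tested, of which 1 was higher and 2 lower, beside the same 39.4% and 26.8%. Their median log2 ratio of 0.53 was close to the 0.55 of all tested miRNAs. miR-21-5p (174986 and 26251) had a ratio of 1.72, miR-182-5p (4996 and 894) 1.44, and miR-183-5p (912 and 669) was lower at 0.351. The higher one was miR-9-5p (195 and 22, ratio 2.28), which represses E-cadherin.

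Like miR-103 and miR-107, the 26 miRNAs of a further list are processed from introns of protein-coding genes. Of 21 tested 13 were higher and 4 lower, beside 39.4% higher and 26.8% lower over all tested miRNAs. The median log2 ratio was 1.67, against 0.55 overall. Several share a host transcript, as miR-25-3p, miR-93-5p and miR-106b-5p do in MCM7, and miR-16-5p also has a hairpin in the non-coding DLEU2, so the members are not independent. miR-26a-5p (41021 counts with bait and 2894 without), from introns of CTD phosphatase genes, was higher at 3.65 (3.52 to 3.79). miR-151a-3p (3742 and 6692), from an intron of PTK2, was lower at 0.144. miR-25-3p (12485 and 3926), from MCM7, and miR-128-3p (1632 and 403) passed neither rule at 0.819 and 1.04. The ratios of this list ran from 0.144 to 84.3, and both PANK intron miRNAs lay inside that range and below its median.

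By closeness of log2 ratio over the 2 libraries, the 3 tested miRNAs nearest to miR-103a-3p were miR-9-5p, miR-548av-3p (ratio 2.29) and miR-5010-3p (2.32), within 0.02 to 0.04 on the log2 scale. The 3 nearest to miR-107 were miR-99b-5p (1.17), miR-7706 (1.24) and miR-335-3p (1.24), within 0.01 to 0.07. With 2 libraries such likeness is a description only. By abundance, the 6 tested miRNAs next to miR-103a-3p in the bait library had 1151 to 1632 counts there. Their ratios spread from 0.471 for miR-224-5p to 4.72 for miR-192-5p, with 1 higher, 1 lower and 4 neither (miR-128-3p, miR-22-3p, miR-99a-5p and miR-30e-3p), beside 39.4% higher and 26.8% lower over all tested miRNAs. The lower call of miR-224-5p was lost with TMM factors (0.525) and DESeq2 size factors (0.632).

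Marker miRNAs were read beside the label of a basal breast line. Both libraries are resin eluates, so these levels cannot check which cells the lysate came from. For the basal label, miR-221-3p, miR-222-3p, miR-100-5p and miR-31-5p were chosen, and whether each marks such lines was not tested. These 4 summed to 309993 RPM with bait and 497420 RPM without, of which miR-100-5p alone gave 296361 and 452802 RPM. miR-31-5p was scarce, at 9 counts with bait and 4 without. The 5 epithelial markers summed to 174 and 111 RPM, with miR-141-3p and miR-205-5p at 0. The 7 blood cell markers summed to 432 RPM with bait and 864 RPM without, and miR-486-5p gave most of each sum, 369 and 793 RPM. miR-142-5p had a ratio of 1.29 and miR-142-3p had 17 counts with bait and 0 without, and miR-144-3p, miR-223-3p and miR-150-5p were at 0 with bait. The part of these markers in the ratios of miR-103a-3p and miR-107 was not tested.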

How the data were processed

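Small RNA libraries were made from resin eluates of MDA231 lysate, 1 with bait and 1 without, per the labels' protocols. The authors deposited a whole-number count and a normalized value, an RPM, for each of 2588 mature miRNA names. That RPM equals the deposited count over its library total, within 0.00994 RPM. BWA is named without a version in the submitters' processing notes. The sources used here do not give the reference, trimming, genome build or handling of multiply matching reads. A separate deposited table of the authors holds log2 fold changes and p-values from an unnamed test.

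Ratios of counts scaled by library totals (1047269 with bait and 269716 without) were computed in Python 3.11.15 with scipy 1.17.1. Exact 95% intervals cover counting error only, since there are no replicates. Reads carry no molecular identifiers, so the intervals treat every read as independent. miRNAs with at least 30 summed counts were tested. A ratio of at least 2 or at most 0.5 was called where the interval excluded 1. A count of 0 was given a floor of 3 counts. No p-value was computed, because each group had 1 library. The calls were tested on simulated data. Alternatives were edgeR 4.0.16 TMM factors, DESeq2 1.42.0 size factors, totals without the 5 most abundant miRNAs, other count minimums, the deposited RPM, and the summed entries.

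The lists, the members and the naming rule were chosen with earlier results of these data known. The rule named the members, up to 4 of the most abundant tested members per list, seed sharers, nearest miRNAs in ratio and abundance, and the deepest near-identical and antisense pairs. RefSeq gave a sequence for 2281 names. Coordinates are GRCh38.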

Additional observations from a re-analysis of the deposited data

How the results depend on the processing

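No paired analysis was possible because each group has 1 library. The alternatives shifted every log2 ratio by 0.15 (TMM), 0.42 (DESeq2 size factors) or -0.13 (totals without the 5 most abundant miRNAs). miR-103a-3p stayed higher under all of them and moved out of its counting interval with DESeq2 size factors alone (3.01). Over all tested miRNAs, 59 were higher and 37 lower at a minimum of 100 counts, and 100 were lower with no minimum (names above the floor). Higher calls were 59.5% of all calls with library totals, 72.2% with DESeq2 size factors and 48.7% with no minimum. In the miR-15 and miR-107 group a minimum of 100 counts left 2 tested members and a median log2 ratio of 2.13. In the metabolic list, DESeq2 size factors gave 4 higher, and totals without the 5 most abundant, a minimum of 10 and no minimum gave 1 lower each. Its median was 0.90 with TMM and 1.17 with DESeq2 size factors. In the metastasis-promoting list, DESeq2 size factors gave 2 higher and 1 lower, and the median of 0.53 became 0.68 (TMM), 0.95 (DESeq2) and 0.40 (without the 5 most abundant). In the list known to repress DICER1, totals without the 5 most abundant left 1 higher, and the median with DESeq2 size factors was -0.26. Changes under a scaling follow from its shift, and those under a count minimum from the number of miRNAs tested. The other 100 alternative values stayed within 1.5 times a count, within the counting interval of a ratio, or a range set for a median. That range ran from the median lower bound to the median upper bound of the single miRNAs' intervals. It is not an interval of the median and is wide, -0.04 to 1.17 over all tested miRNAs. The median of all tested miRNAs ran from 0.04 (no minimum) to 0.97 (DESeq2 size factors) around 0.55. The 12 counts of miR-107 without bait limit its ratio, and miR-103a-2-5p and miR-103b had too few counts in either library for one.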

Other observations

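The authors' deposited table lists 179 names with 1 to 3 counts with bait and 0 without, of which 111, miR-103a-2-5p among them, rest on 1 count. Their log2 fold changes in the authors' deposited table ran from 6.57 to 8.16, far above the 1.17 given there for miR-103a-3p with its 1335 counts with bait and 153 without. The p-values of these names in the authors' deposited table lay between 0.524 and 1.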
